A study of Mus musculus with 4 samples.

Results

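The regions described here were promoters with a strong ATAC-seq peak in every library of the series. They were selected on measured values, namely the peak caller's q-values: peaks whose −log10 q reached 5 or more were merged across the 4 libraries wherever they overlapped by 1 bp or more, merged regions holding such a peak in all 4 libraries were kept, and a region counted as a promoter when its strongest peak carried the authors' promoter-TSS annotation. Of 21240 merged strong regions, 10390 were strong in all 4 libraries, and 6042 of these (58.15%) were promoters. The other strong regions comprised 1681 in introns, 1394 between genes, 1022 in exons and 251 at gene ends. The 1681 intronic and 1394 intergenic regions, 3075 together, served as the distal regions for comparison.

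The study profiled LβT2 cells, an established mouse line that resembles gonadotropes, the pituitary cells that secrete luteinizing hormone and follicle-stimulating hormone. The sample titles name the line LbT2b and the source field names it LbT2. Both groups were seeded at 350000 cells per well, kept without serum overnight and treated for 6 h, one with vehicle and the other with 1 nM activin A, a TGF-β family hormone. Each group had 2 libraries made from 50000 cells per reaction, the library names carry a second "veh" that the labels do not explain, and nothing in the labels says what separates 2 replicates of a group. All results are therefore from a single cell line, and p-values measure the spread between these libraries, which may be technical.

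Active promoters keep a stretch of DNA around the transcription start site free of nucleosomes, where general transcription factors and RNA polymerase II assemble, and the transposase used in ATAC-seq inserts preferentially into such DNA. Most housekeeping genes of mammals start within CpG islands, GC-rich DNA in which CpG dinucleotides have not been depleted, whereas many tissue-restricted genes start behind a TATA box. Divergent promoters, where neighbouring genes start close together on opposite strands, are common among housekeeping genes.

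Promoter sequences of 7 genes are shown. Khsrp, Dyrk1b, Pld3 and Rps19 were chosen for motifs that were more frequent in the open promoters than in all promoters. Fam83d was chosen for a TATA box near the start, which was rarer in the open promoters than in all promoters. Lhb and Cga, which encode subunits of the gonadotropins, also have such a TATA box and depart from the common pattern. Each runs from 250 bases before the RefSeq start site to the first 30 transcribed bases, on the gene's strand, taken from the RefSeq table of build GRCm38.p6. Capitals mark the letters of motifs searched on both strands: the CCAAT box (CCAAT), the GC box bound by Sp1-type factors (GGGCGG), the TATA box (TATAAA), and sites named for NRF1 (GCGCATGC), ETS factors (CCGGAAG) and ZBTB33 (TCTCGCGA). Adjacent GC boxes, and the ZBTB33 matches of Rps19, overlap each other. A match is a description of the letters and was not tested as a binding site.
Khsrp, chr17:57031478-57031757, minus strand: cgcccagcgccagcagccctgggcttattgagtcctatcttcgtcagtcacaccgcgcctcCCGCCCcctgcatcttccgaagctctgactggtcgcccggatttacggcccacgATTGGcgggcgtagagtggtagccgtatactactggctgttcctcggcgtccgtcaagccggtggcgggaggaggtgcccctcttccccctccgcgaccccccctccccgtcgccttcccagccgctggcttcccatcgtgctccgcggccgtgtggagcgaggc
Dyrk1b, chr7:28179233-28179512, plus strand: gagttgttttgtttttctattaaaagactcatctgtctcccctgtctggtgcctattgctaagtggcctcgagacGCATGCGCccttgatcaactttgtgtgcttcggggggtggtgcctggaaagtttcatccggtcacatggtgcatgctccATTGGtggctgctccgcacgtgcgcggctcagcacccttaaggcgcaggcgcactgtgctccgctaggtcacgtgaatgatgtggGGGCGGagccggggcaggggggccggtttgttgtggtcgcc
Pld3, chr7:27553189-27553468, minus strand: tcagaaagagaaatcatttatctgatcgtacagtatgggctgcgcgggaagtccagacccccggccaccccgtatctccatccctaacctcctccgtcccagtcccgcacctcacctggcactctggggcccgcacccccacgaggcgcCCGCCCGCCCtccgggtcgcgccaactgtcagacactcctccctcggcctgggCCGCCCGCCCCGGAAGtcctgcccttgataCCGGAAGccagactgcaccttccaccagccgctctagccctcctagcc
Rps19, chr7:24884342-24884621, plus strand: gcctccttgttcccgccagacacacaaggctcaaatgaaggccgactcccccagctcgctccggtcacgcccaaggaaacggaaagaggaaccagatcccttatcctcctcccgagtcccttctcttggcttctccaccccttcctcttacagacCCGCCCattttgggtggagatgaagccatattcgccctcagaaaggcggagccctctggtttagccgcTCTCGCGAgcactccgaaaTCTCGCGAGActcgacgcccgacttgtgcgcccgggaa
Fam83d, chr2:158767849-158768128, plus strand: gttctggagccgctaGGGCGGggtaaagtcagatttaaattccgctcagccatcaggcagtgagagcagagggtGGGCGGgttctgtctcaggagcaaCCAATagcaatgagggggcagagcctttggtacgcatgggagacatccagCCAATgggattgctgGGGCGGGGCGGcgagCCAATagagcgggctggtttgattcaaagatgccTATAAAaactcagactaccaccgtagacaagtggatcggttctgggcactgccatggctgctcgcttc
Lhb, chr7:45420696-45420975, plus strand: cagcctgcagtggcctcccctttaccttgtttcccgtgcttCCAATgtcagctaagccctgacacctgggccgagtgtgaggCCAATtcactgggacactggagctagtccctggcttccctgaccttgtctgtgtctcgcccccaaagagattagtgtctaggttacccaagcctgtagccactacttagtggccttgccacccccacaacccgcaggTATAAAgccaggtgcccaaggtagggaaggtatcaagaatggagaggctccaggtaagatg
Cga, chr4:34893529-34893808, plus strand: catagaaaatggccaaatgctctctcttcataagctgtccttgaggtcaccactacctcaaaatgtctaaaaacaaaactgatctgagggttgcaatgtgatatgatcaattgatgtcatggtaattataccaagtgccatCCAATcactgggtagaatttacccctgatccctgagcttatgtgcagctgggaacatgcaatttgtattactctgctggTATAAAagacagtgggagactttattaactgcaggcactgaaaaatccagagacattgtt
Khsrp and Dyrk1b were among the 8 densest promoters, Khsrp with a CCAAT box read on the opposite strand 135 bases before the start, and Dyrk1b with an NRF1 match 175 bases before it. Pld3 starts within the region that the authors annotated to 2310022A10Rik, a gene on the other strand, and has ETS matches 39 and 18 bases before its start. Rps19 carries ZBTB33 matches 27 and 8 bases before its start. Fam83d was the densest of the open promoters with a TATA box 20 to 40 bases before the start, and its box lies 38 bases before it. The TATA boxes of Lhb and Cga lie 31 and 30 bases before their starts.

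Most of the open promoters belonged to protein-coding genes. The authors' annotation placed 5636 (93.3%) at protein-coding transcripts, 127 at lincRNAs, 79 at antisense RNAs, 73 at processed transcripts and 39 at miRNAs. They fell on 5945 distinct annotated genes, of which 95 had more than 1 such region and none more than 3. The X chromosome held 185 and the Y chromosome none. The annotated gene was also the gene with the nearest start in 4397 regions (72.8%), and in 290 regions the annotated gene had no symbol paired with its identifier in the files. A protein-coding RefSeq start lay inside 4745 of the 5898 regions outside chromosome 18, for which promoter sequences were not used here. For position, 1 start was used in each of 4701 regions. Where a gene had several starts, the one nearest the region's centre was taken, which itself favours a central position. A median of 47.7% of the region lay upstream of that start, with medians of 508 bp upstream and 544 bp downstream. In 86.6% of these regions the start fell outside the outermost 25% on each side.

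The open promoters differed from other promoters in base composition. Among 17492 protein-coding genes with a RefSeq start in the sequence table, 5328 started inside one of the regions. Another 3010 started in a region called in all 4 libraries that was not in the set. A further 1638 started in a region called in 1 to 3 libraries, and 7516 in no called peak. For a gene with several starts, a start inside one of the open promoters was used where there was one, and otherwise the first listed. Over the 300 bases around the start, median GC content was 64.0% in the open promoters, 61.0% and 56.3% in the next 2 classes, and 47.7% where no peak was called. The ratio of observed to expected CpG, which is low where CpG has been lost, had medians of 0.833, 0.770, 0.482 and 0.214 in the same order. Among genes with a single start in the table, for which no start was chosen, these medians were 0.833, 0.769, 0.472 and 0.204. A ratio over 0.6 was found in 87.6% of the open promoters and in 12.7% of promoters without a peak. No test was made of these shares, since genes are not replicates.

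Motifs followed the same order for GC-rich sites. The GC box was present in 75.7% of the open promoters, 68.3% of those called in all 4 libraries outside the set, 41.9% of those called in 1 to 3 and 19.4% of those with no peak, against 47.1% of all promoters of the table. The ETS site was present in 22.0%, 19.1%, 7.33% and 3.27% of these classes, and in 12.1% of all promoters. The NRF1 site, bound by a factor that controls many nuclear genes for mitochondria, was present in 6.89%, 5.61%, 1.65% and 0.945%, and in 3.62% of all. The ZBTB33 site was present in 3.45%, 1.73%, 0.427% and 0.346%, and in 1.54% of all. The cyclic AMP response element TGACGTCA did not separate the first 2 classes: it was present in 3.73% and 3.82%, then in 1.83% and 0.891%, and in 2.35% of all. The YY1 site (AAGATGGCG) behaved likewise, with 3.40% and 3.82%, then 1.10% and 0.346%, and 1.94% of all. Every site of this paragraph contains CpG itself, and the shares were not adjusted for the CpG ratio of the classes.

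The CCAAT and TATA boxes did not follow the GC-rich order. The CCAAT box was present in 43.5% of the open promoters, 33.9% and 31.4% of the intermediate classes, and 39.5% of promoters without a peak, against 39.0% of all. TATAAA on either strand was least frequent in the open promoters, at 4.28%, followed by 7.11% and 11.5%, and reached 22.4% where no peak was called, against 13.2% of all. At its usual place 20 to 40 bases before the start, it was found in 37 of 5328 open promoters (0.694%), compared with 5.04% of promoters without a peak and 2.86% of all.

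Opposite start sites were close to many of the open promoters. A protein-coding gene on the other strand started within 1000 bp upstream for 1098 of 5328 genes (20.6%), compared with 6.11% of promoters called in all 4 libraries outside the set, 2.81% of those called in 1 to 3, 1.42% of those with no peak and 8.20% of all. Among genes with a single start in the table the shares were 20.8%, 6.02%, 2.60% and 1.30%, and 7.72% of all. In 632 regions the starts of at least 2 genes lay inside the region, and in 622 of these they lay on both strands. A region that holds the starts of neighbouring genes is counted under each of them, so both genes of such a pair share 1 measurement.

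**Figure D1:**
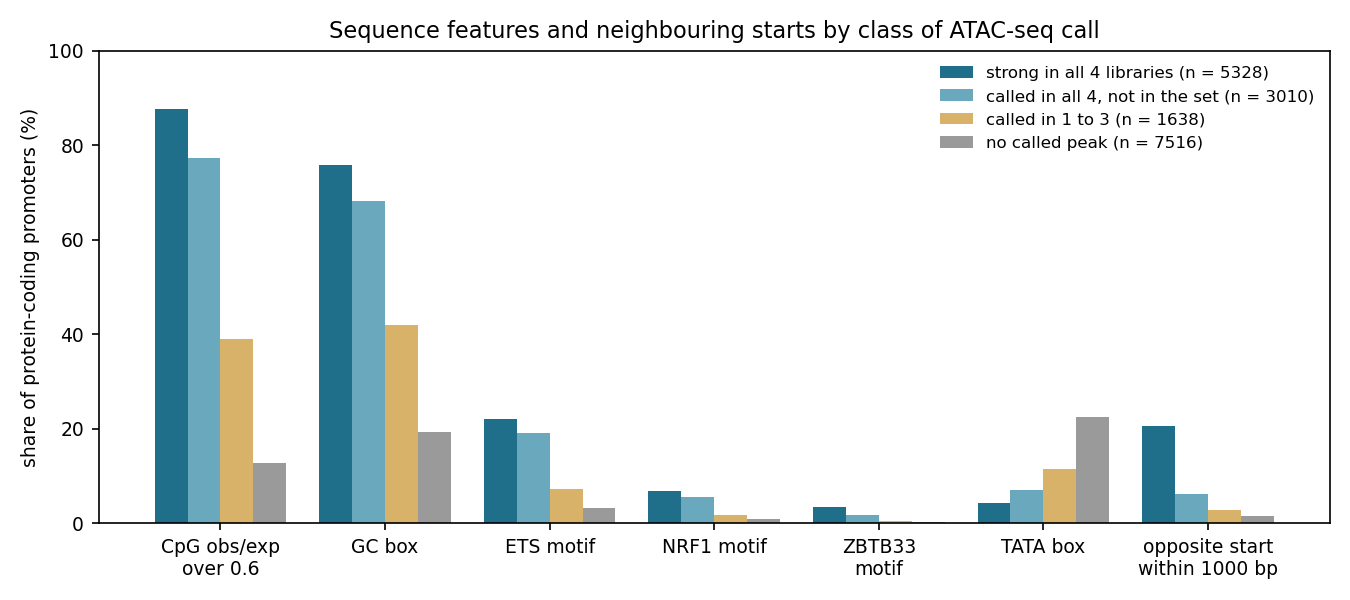
Bars give the share (%) of protein-coding promoters with each feature in 4 classes of ATAC-seq call, with the number of genes per class in the key. GC-rich features and an opposite start within 1000 bp were most frequent in the promoters strong in all 4 libraries, whereas the TATA box was least frequent there (4.28% against 22.4% without a peak).

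Within the set, both width and read density differed with sequence. Density here is the number of high-quality reads in the library's own peak, per kb of that peak and per 1000000 high-quality reads of the library, averaged over the 4 libraries; a high-quality read is an autosomal alignment that passed the quality report's filters. In 4 groups of equal size, from the lowest to the highest CpG ratio, median width was 999, 1065, 1126 and 1200 bp, while median density was 3.67, 3.78, 3.78 and 3.58. Regions with a GC box were wider than those without (1132 against 1017 bp) and denser (3.82 against 3.29 reads per kb per 1000000), and the order of density was the same in each of the 4 libraries. A CCAAT box went with higher density (3.96 against 3.55) and lower width (1067 against 1131 bp). Regions with an opposite start were wider, 1189 against 1088 bp, and differed little in density, 3.73 against 3.70.

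The open promoters spanned 228 to 4218 bp, with a median of 1097 bp and an interquartile range of 868 to 1394 bp. Together they covered 7.11 Mb. Distal regions had a median of 999 bp, intronic ones 1053 bp and intergenic ones 932 bp, and strong exonic regions 1112 bp. The difference lay mainly at the narrow end: 75 promoters (1.24%) were under 500 bp, compared with 227 distal regions (7.38%). Widths and densities come from the peak calls that defined the set, so they are given as a description. Per library, before merging, the median promoter peak measured 841 bp in vehicle replicate 1, 883 bp in vehicle replicate 2, 996.5 bp in activin replicate 1 and 937 bp in activin replicate 2. The corresponding distal medians were 671, 726, 871 and 788 bp, so that promoter peaks were the wider in every library.

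Median read density of the open promoters was 3.56 in vehicle replicate 1, 3.06 in vehicle replicate 2, 4.10 in activin replicate 1 and 3.92 in activin replicate 2. Distal regions had 2.86, 2.53, 3.21 and 3.09 in the same libraries, which put promoters 1.21- to 1.28-fold above them. The 10th percentile of distal regions was only 0.47 to 0.65 per library, against 1.83 to 2.48 for promoters. Distal regions thus included more with very few high-quality reads, and the cause was not tested. Averaged over libraries, the median promoter had 3.67, the median distal region 2.93 and the median strong exonic region 3.24. The ranking of promoters by density was similar in the 4 libraries, with Spearman coefficients of 0.908 to 0.935 over the 6 pairs of libraries and 5857 autosomal regions, which share the same sequence and copy number. Width and density were nearly unrelated (Spearman −0.035 over the same regions). Density went with the peak caller's −log10 q, with coefficients of 0.655 to 0.752 per library, and only weakly with its fold enrichment, 0.108 to 0.236.

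**Figure D2:**
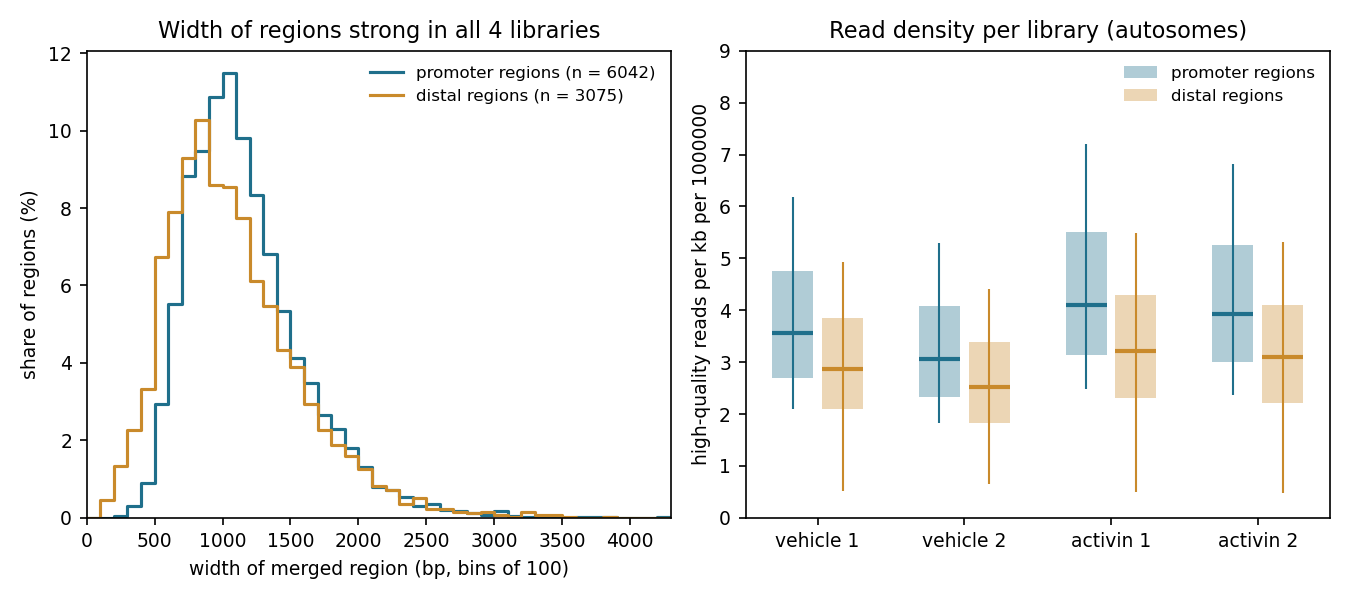
The left panel shows the share (%) of promoter and distal regions per 100-bp bin of width, and the right panel the high-quality reads per kb per 1000000 in each library, as medians (lines), interquartile ranges (boxes) and 10th to 90th percentiles (whiskers). Promoter regions have fewer narrow members (median 1097 against 999 bp) and higher median density in all 4 libraries.

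The 4 libraries had 172146474 to 224226184 high-quality reads, and 1.87 to 2.84% of them lay in the open promoters, with 95% Wilson intervals no wider than ±0.00232 percentage points, which cover counting error only. Enrichment of reads at start sites, taken from the quality report, ranged from 2.48 to 2.72 for vehicle and from 3.04 to 3.12 for activin. Strong promoter peaks numbered 6719 and 6309 with vehicle and 8052 and 7456 with activin, of which 85.4, 88.8, 73.8 and 77.0% fell in the set. The weakest library limited membership: vehicle replicate 2 gave the lowest −log10 q in 63.7% of regions and vehicle replicate 1 in 31.5%. The regions nearest the threshold were Polr2l (lowest −log10 q 5.001) and Sox11 (5.002) inside it and Gm9899 (4.999) and Tmem39b (4.995) outside it. In all, 522 promoters (8.64%) had a lowest −log10 q under 6, while the median was 12.0 for promoters and 7.88 for distal regions.

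The densest promoters belonged to genes with unrelated roles. The region at Zbtb20, which encodes a zinc finger transcription factor (chr16:42874663-42876434), had densities of 18.1, 14.9, 19.0 and 19.1 in vehicle replicates 1 and 2 and activin replicates 1 and 2. Khsrp, which encodes an RNA-binding regulator of mRNA decay and splicing (chr17:57031132-57032339), had 16.5, 13.7, 18.5 and 18.4. Both were lowest in vehicle replicate 2. Next in mean density were Hdgfrp2 (15.9), Adck4 (15.1), whose product takes part in coenzyme Q synthesis, and Dyrk1b (15.0), a protein kinase gene whose promoter is printed above. They were followed by the 2310022A10Rik and Pld3 region (15.0), by Cdkn2d (14.8), an inhibitor of the cyclin-dependent kinases Cdk4 and Cdk6, and by Ap2a1 (14.8), a subunit of the clathrin adaptor AP-2. The nearest annotated start was that of another gene for Zbtb20 (4932412D23Rik), Adck4 (Itpkc) and Ap2a1 (Tsks). For comparison, 99% of autosomal open promoters were under 10.0 in mean density.

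The widest regions were not the densest. Brd2, which encodes a bromodomain protein that binds acetylated histones (chr17:34119042-34122874), spanned 3833 bp, with peaks of 3735, 3769, 3833 and 3769 bp in the 4 libraries and a mean density of 6.04. Arid2, a subunit of a SWI/SNF remodelling complex (chr15:96284844-96288590), spanned 3747 bp with a density of 2.95, and its peaks measured 2365, 3417, 3707 and 3277 bp. Hnrnpl, a splicing regulator (chr7:28807742-28811409), spanned 3668 bp, but its widest stretch was split in vehicle replicate 1, where strong peaks covered 1087 bp. The lincRNA 1190002F15Rik spanned 3748 bp only after merging, since its peaks measured 2344, 949, 2498 and 2324 bp. The largest region of all, 4218 bp, was annotated to the miRNA gene Gm22065 and held 6 peaks. At the other end were Dgkk on the X chromosome, a diacylglycerol kinase gene (228 bp), Arpc5, a subunit of the actin-nucleating Arp2/3 complex (237 bp), Wbscr28 (274 bp), Rnd3 (301 bp), and the antisense RNA Gm26670 (318 bp). Arpc5 nevertheless had a density of 7.50.

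Read density of the open promoters differed between chromosomes. The median density of open promoters ranged from 2.71 on chromosome 13 to 4.84 on chromosome 17, a 1.79-fold span. The high-quality reads per Mb of whole chromosome, per 1000000, ranged from 242 on chromosome 3 to 624 on chromosome 17, a 2.57-fold span, and the value of chromosome 17 lay between 620 and 629 in the 4 libraries. Across the 19 autosomes, median promoter density and reads per Mb had a Spearman coefficient of 0.933 and a Pearson coefficient of 0.924, and distal regions gave 0.930; the points share libraries and each chromosome's own reads enter both axes. The authors' fold enrichment went the other way, with a Spearman coefficient of −0.889. What sets the difference between chromosomes was not tested. Of the 100 densest promoters, 41 were on chromosomes 7 and 17, which held 14.2% of autosomal members. After division by the reads per Mb of the chromosome, relative to the autosomal mean, 21 were, and 49 promoters were among the first 100 on both scales. Zbtb20 stayed among the 5 densest on that scale, with 13.9, beside Gm10044 (14.0), Gins2 (13.8), a subunit of the replicative helicase, Kat6b (13.1), a histone acetyltransferase, and Trim45 (13.0). In windows of 5 Mb the densest was 25 to 30 Mb of chromosome 7, where 58 promoters had a median of 6.97, followed by 55 to 60 Mb of chromosome 17, where 31 had a median of 6.45.

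**Figure D3:**
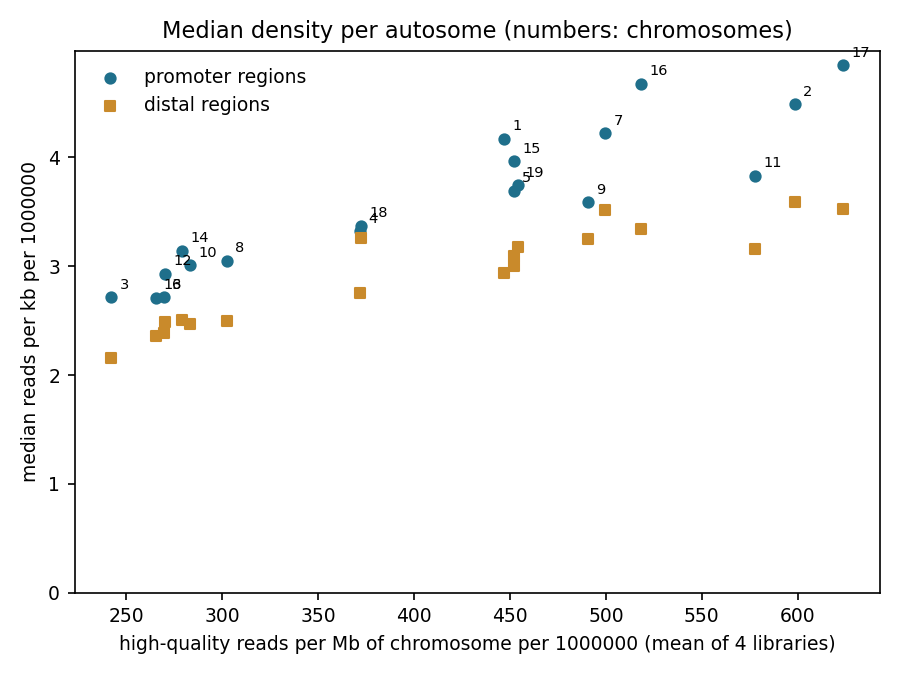
Each autosome is plotted by its high-quality reads per Mb per 1000000 (mean of 4 libraries) and the median reads per kb per 1000000 of its promoter (circles) and distal (squares) regions. Both medians are higher on chromosomes with more reads, from chromosome 3, at 242 reads per Mb, to chromosome 17, at 624.

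A few promoters passed the q-value rule with almost no high-quality reads. Mean density was under 0.5 in 26 of them, 12 had at most 3 high-quality reads in every library, and 8 had none in any library, which allows a density of up to 0.0172 to 0.0726 depending on the peak and library. Zfp97, a zinc finger gene on chromosome 17, had −log10 q values of 29.3, 20.6, 62.1 and 41.5 but 1, 0, 0 and 0 high-quality reads. The 8 at 0 in every library were Zfp955b, Gm16677, Gm21685, Gm25144, Gm13289, Gm13272, Gm13279 and Gm13287. Of 10 members in a window on chromosome 4, 8 were under 0.5; those 8 lay at chr4:88773334-88803293, about 30.0 kb, at a median spacing of 2954 bp. Eif3b, a subunit of translation initiation factor 3, had 23, 74, 53 and 36 reads with −log10 q values of 26.8 to 54.3. For these regions the peak caller's values and the quality report's read counts go apart, and the cause was not tested. Their densities are not read as low accessibility.

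Genes of basic cell functions were often among the open promoters. By RefSeq symbol or start site, 6370 of 21900 protein-coding genes (29.1%) had one, and the share in each gene family is set beside that figure. The densest and least dense regions of a family were taken only from autosomal regions annotated to its genes. These were fewer than the genes counted in each family, such as 15 regions for the 19 genes of DNA replication. In DNA replication, 19 of 24 genes had one (79.2%), the densest being Gins2, with densities of 9.82, 9.95, 11.2 and 10.1. Mcm5, a subunit of the same helicase, was the lowest, with 1.77, 2.41, 2.39 and 2.17. Cyclins and Cdks had 31 of 47 (66.0%), from Ccnf at a mean of 7.30 to Ccnb2, a mitotic cyclin, at 2.22. Among RNA polymerase subunits the count was 20 of 29 (69.0%), from Polr3k at 5.26 to Polr2m at 1.58, and among Mediator subunits 18 of 30 (60.0%), from Med26 at 4.03 to Med12l at 2.08. Splicing and RNA-binding proteins had 43 of 66 (65.2%), from Snrpa, a U1 snRNP protein, at 8.23 to Srsf11 at 1.85.

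In the machinery of protein synthesis and turnover the shares ran from 47.4 to 62.5%. Translation initiation factors had 34 of 56 genes (60.7%), with Eif2ak4, a kinase that senses amino acid shortage, densest at 6.53. Aminoacyl-tRNA synthetases had 20 of 36 (55.6%), from Tars at 5.27 to Hars at 1.43. Cytosolic ribosomal proteins had 46 of 91 (50.5%), and Rps19, printed above, was the densest, with 8.97, 7.31, 10.2 and 9.55, while Rps23 was the lowest with 2.26, 1.22, 1.76 and 1.93. Their promoters included 7 with a ZBTB33 match among 36 with a start inside a region. Mitochondrial ribosomal proteins had 37 of 78 (47.4%), from Mrpl17 at 8.41 to Mrps18c at 1.87, and 48.5% of the 33 starts inside a region had an opposite start within 1000 bp, against 11.1% of the 36 for cytosolic ribosomal proteins. Proteasome subunits had 25 of 40 (62.5%), with Psmc4, an ATPase of the regulatory particle, at 12.3, 10.4, 11.9 and 13.0, and Psmb2 at 1.99, 1.54, 2.25 and 1.97. Chaperones had 49 of 84 (58.3%), from Hspa8, the constitutive Hsp70, at 9.28 to Dnaja2 at 1.95, and enzymes that attach or remove ubiquitin had 50 of 93 (53.8%), from Usp22 at 7.86 to Usp47 at 1.86.

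Metabolic, transport and regulatory families were mixed. Respiratory chain subunits and their assembly factors had 63 of 106 genes (59.4%), from Atp5e, a subunit of ATP synthase, at 6.98 to Sdhaf3 at 1.69. SNARE and Rab genes of vesicle traffic had 50 of 97 (51.5%), from Rab40c at 11.6 to Rab7 at 1.60. Zinc finger genes with the symbol Zfp had 168 of 397 (42.3%), from Zfp574 at 13.2 to Zfp955b, which had no high-quality read. Replication-dependent histones had 25 of 67 (37.3%), from Hist1h3g at 2.95 to Hist1h4j at 1.35. By the annotated gene alone they had 10 of 67 (14.9%), below the 24.1% of all protein-coding genes by that measure. Kinesins had 14 of 38 (36.8%), from Kif24 at 7.50 to Kif9 at 1.78. Solute carriers had 85 of 375 (22.7%), a share below that of all genes, from Slc39a13 at 8.75 to Slc35a3 at 1.61. By contrast, no open promoter was found for 1110 olfactory receptor genes, 353 vomeronasal receptor genes, 71 defensin genes, 49 keratin genes, 39 Hox genes or 38 taste receptor genes. Serpins had 5 of 63 (7.94%), cytochromes P450 4 of 99 (4.04%) and cytokines and chemokines 2 of 70 (2.86%). Many of these families are tissue-restricted and clustered, and near-identical copies can share reads, so a missing region is not read as closed chromatin.

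**Figure D4:**
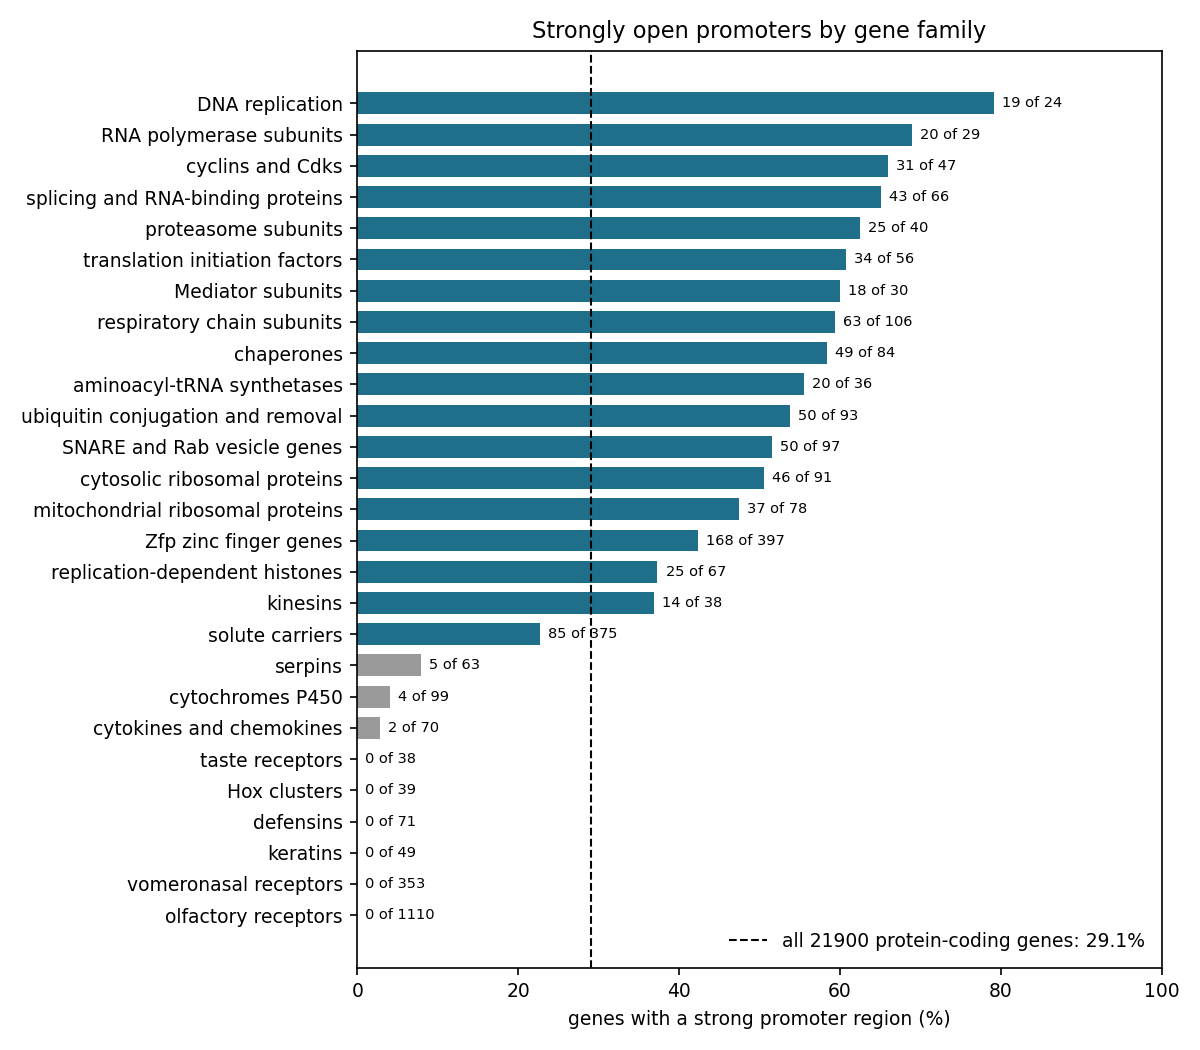
Horizontal bars give the share (%) of genes with a strong promoter region in each family, with counts beside the bars, and the dashed line marks 29.1%, the share over all 21900 protein-coding genes. Families of basic cell functions and of metabolism, transport and regulation (blue) run from 22.7%, for solute carriers, to 79.2%, for DNA replication. Families chosen for contrast (grey) run from 0 to 7.94%.

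The gonadotrope label was checked against defining genes. Of 16 gonadotrope genes, 7 (43.75%, beside 29.1% of all protein-coding genes) had an open promoter, among them Lhb, Cga, Gnrhr, the receptor of gonadotropin-releasing hormone, the transcription factors Isl1 and Egr1, and the secretory granule gene Scg2. Another 5 (Foxl2, Gata2, Lhx4, Tgfbr3l and Chga) had a promoter peak in all 4 libraries that fell short of the threshold in at least 1, with lowest −log10 q values of 2.25 to 3.59, and 4 (Fshb, Nr5a1, Pitx1 and Lhx3) had no promoter region called in all 4. None of 12 genes of other pituitary cells, 6 of blood and endothelial cells or 4 of fibroblasts had an open promoter. In bulk data such as these, fewer cells with an open site and less access per cell cannot be told apart.

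The gonadotropin subunit promoters were of ordinary density and unusual sequence. Lhb (chr7:45420305-45420952) had densities of 3.42, 3.33, 4.02 and 3.96, and Cga, the common α subunit (chr4:34893205-34894092), had 3.09, 2.60, 4.15 and 3.94. Both were near the median of all open promoters in each library. Their CpG ratios were 0.167 and 0.0784, against a median of 0.833. Gnrhr (chr5:86197304-86198810) had 1.83, 1.53, 1.90 and 2.47, Scg2 had 2.04, 1.45, 2.79 and 2.33, and Isl1 had 2.89, 2.05, 3.44 and 2.86. Egr1 was the densest of the list with 4.54, 3.80, 5.63 and 5.06.

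Of 36 genes of the activin and TGF-β pathway, 19 (52.8%) had an open promoter, beside 29.1% of all protein-coding genes. They included receptors, Smads, inhibitors and targets, but none of the subunit genes Inha, Inhba and Inhbb and not Smad4, the common Smad. Among type I receptors these were Acvr1 (mean density 3.54), Acvr1b (3.87), Tgfbr1 (7.15) and Bmpr1a (2.37), and among type II receptors Acvr2a (2.98) and Acvr2b (2.55). Receptor-activated Smads were present as Smad2 (7.51), Smad3 (5.67) and Smad5 (1.95), with their anchor Zfyve9 (2.18). Inhibitors included the inhibitory Smads Smad6 (6.10) and Smad7 (5.96), the corepressors Ski (9.64) and Skil (4.87), the ubiquitin ligase Smurf2 (2.41) and the activin-binding protein Fstl3 (6.95). The targets Id1 (3.55), Id2 (4.21) and Id3 (2.82) completed the list. Ski was the densest, with 9.66, 8.25, 10.5 and 10.2 in the 4 libraries. A further 4 genes, Acvr1c, Smad9, Inha and Tgif1, had a promoter peak in all 4 libraries below the threshold, with lowest −log10 q values of 1.57 to 4.47.

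Activin-treated libraries had more, wider and denser promoter peaks than vehicle libraries, without overlap between groups. Strong promoter peaks numbered 6514 ± 290 with vehicle and 7754 ± 421 with activin (mean ± SD, n = 2 libraries each). Median peak width in the open promoters was 862 ± 29.7 bp against 966.75 ± 42.1 bp, and median density was 3.31 ± 0.353 against 4.01 ± 0.127 (n = 2 each). These values come from the peak calls that defined the set and are given with no test. An exact permutation test of 2 against 2 libraries cannot give a p under 0.333. The lack of overlap is therefore not read as an effect of activin. Distal regions moved in the same direction, from 2.70 ± 0.240 to 3.15 ± 0.0878 (n = 2), and the ratio of promoter to distal density was 1.23 ± 0.0215 with vehicle and 1.27 ± 0.00470 with activin. Start-site enrichment moved with these values, at 2.60 ± 0.171 against 3.08 ± 0.0517, and its part in them was not tested.

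No single open promoter passed the test for a change with activin. The test was limma on log2 density centred on each library's median, fitted over 13871 autosomal regions that had exactly 1 peak per library and a common part of at least 50% of the union, with Benjamini-Hochberg adjustment over all of them. It covered 5156 of the open promoters; the other 886 comprised 185 on the X chromosome, where no reads were counted, and 701 that failed the conditions on peaks. With limma, 0 of 5156 had an adjusted p under 0.05, where the share over all regions was 0%, and the smallest adjusted p was 0.184. At an unadjusted p under 0.05 there were 455 (8.82%), 281 higher and 174 lower, against 9.53% over all regions. The size of that split depended on single libraries. It was widest without vehicle replicate 1 and closer to even without vehicle replicate 2 or activin replicate 2. Higher promoters stayed the more numerous whichever library was left out. Densities of the 2 groups did not overlap in 1442 promoters that were higher with activin (28.0%, against 20.9% of all regions) and 688 that were lower (13.3%, against 20.5%). The median log2 change was 0.040 in the open promoters, −0.0049 over all regions and −0.039 in the 8715 other regions, with a median standard error of 0.11 per promoter. Log2 changes beyond 0.5 in either direction were seen in 24 promoters (0.465%) and in 6.42% of all regions. The open promoters had to have a strong peak in every library, whereas all regions include weaker peaks. A mean of at least 50 reads was reached by 5139 of 5156 promoters and by 12722 of 13871 regions. The lower share of large changes in promoters is therefore not read as stability under activin.

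Centring on the median region sets the zero of this comparison. When densities were scaled to all high-quality reads instead, the median log2 change over all regions shifted to 0.27 and that of the open promoters to 0.31. On that scale limma called 289 of 5156 open promoters, all of them higher, beside 553 of all 13871 regions (3.99%) called higher. Without overlap between groups, 3889 promoters (75.4%) lay higher, against 62.2% of all regions. The median of the open promoters stood 0.044 above that of all regions, a difference that this choice of scale cannot change.

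The promoters with the smallest p in each direction had called intervals of different length in the 2 groups. At Fam193a (chr5:34369136-34370537) densities were 3.68 and 3.15 with vehicle and 6.81 and 6.60 with activin, on intervals of 1130 and 1370 bp and of 821 and 833 bp. The log2 change was 0.70 ± 0.09 (SE, limma; adjusted p = 0.184). Reads there were 716, 953, 1254 and 979, and without division by length the log2 change was −0.03. Fam120b, which encodes a coactivator of PPARγ, had 2.86 and 2.49 against 5.46 and 4.72, on intervals of 1365 and 1470 against 904 and 822 bp, with a log2 change of 0.65. Smyd2, a lysine methyltransferase gene, and Rbm4b, an RNA-binding protein gene, gave 0.50 and 0.50, also on shorter activin intervals. In the other direction, Pdia6, a protein disulfide isomerase of the endoplasmic reticulum, had 4.47 and 3.86 with vehicle and 3.15 and 3.52 with activin, on intervals of 530 and 459 bp against 743 and 775 bp. Its log2 change was −0.59 ± 0.11 (SE, limma; adjusted p = 0.295). Cbx7, a Polycomb protein gene, gave −0.55, Gapvd1, an endocytosis regulator gene, −0.50, and Gm12758 −0.57, each on longer activin intervals.

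The same relation held over the set. The log2 change in density and the log2 change in interval length had a Spearman coefficient of −0.675 over the 5156 promoters, whose density is divided by that length. Among the 20 promoters with the smallest p in each direction, 19 of the higher ones had shorter activin intervals and 20 of the lower ones longer ones, while 20.3% of all tested promoters had shorter activin intervals. In the 2507 promoters whose intervals differed by less than 10%, 194 (7.74%) had an unadjusted p under 0.05 by limma, against 7.09% of the 6010 such regions in all, and the median log2 change was 0.10 against 0.06. Gm13290 had the highest log2 change, 1.69 (limma, adjusted p = 0.566), from 0, 0, 2 and 2 reads, which is at or under the floor of 3 reads in every library.

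**Figure D5:**
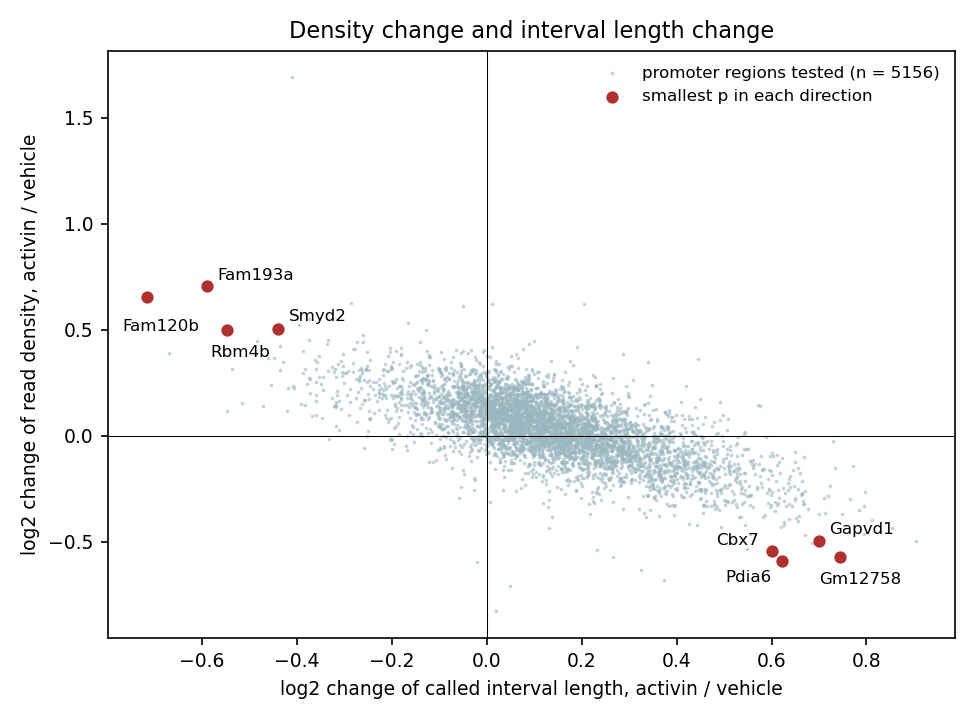
Each point is 1 of the 5156 open promoters tested, by the log2 change (activin over vehicle) in the length of its called interval and in its read density; the promoters with the smallest p in each direction are named. The cloud slopes downward (Spearman −0.675), and the named promoters lie at its ends; the isolated point at 1.69 is Gm13290.

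The listed genes showed no change that passed the test. Of the 7 gonadotrope genes with an open promoter, 6 were tested, with 4 above 0 and a median log2 change of 0.09, which was 0.025 without activin replicate 1, 0.050 without vehicle replicate 2 and 0.00036 with a common part of at least 80%. Cga had the smallest p, with a log2 change of 0.24 ± 0.10 (SE, limma, unadjusted p = 0.0397, adjusted p = 0.509). Per all high-quality reads, both of its activin densities lay above both vehicle ones. That was so in 75.4% of tested open promoters and 62.2% of all regions. Scaled to all high-quality reads, Cga passed the threshold in limma (log2 change 0.51, adjusted p = 0.0473). Lhb gave −0.03 ± 0.10 and Gnrhr 0.10 ± 0.17. Of the 19 activin and TGF-β pathway genes, 14 were tested, 9 of them above 0, with a median of 0.06 and none at an unadjusted p under 0.05 by limma. Tgfbr1 gave 0.09 ± 0.14, Acvr1b 0.08 ± 0.13, Smad3 −0.08 ± 0.10 and Skil −0.11 ± 0.10. The medians of both lists lay within 0.1 of the median over all 13871 regions.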

How the data were processed

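ATAC-seq was deposited for 2 vehicle and 2 activin libraries, with 3 files per library: a broad peak list, its annotation and an ataqv quality report (version 1.3.1, per the file headers). Per the submitters' processing notes, Bowtie2, MACS2 and HOMER were used with GRCm38/mm10; their settings are not given in the sources used here. Peaks were called by the authors on each library alone, and each deposited peak has a score, a fold enrichment ratio and p- and q-values as −log10, all of which were used only to choose and describe peaks. Reads per peak and library totals are the deposited ataqv counts of high-quality autosomal alignments. Positions are counted from 1.

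Groups and replicate numbers came from the sample titles. The members, gene families and gene lists were chosen with earlier results of these data known. Genes were taken from the Ensembl identifier in the authors' promoter annotation, paired with symbols through the files' own nearest-promoter columns; 5368 of 5752 regions with a symbol matched a protein-coding gene of the RefSeq table (GRCm38.p6). Genes were named in the text by rule: the 8 densest, the 5 widest and 5 narrowest regions, the 4 smallest limma p-values in each direction, the densest and least dense of each family, and every list gene with an open promoter, except 1 that is not reported here. The low-read regions, the 5 densest after chromosome scaling, and Fam83d and Pld3 were named after their values were seen.

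Computation used pandas 2.3.3, scipy 1.17.1 and limma 3.58.1 in R 4.3.3. For limma (trend), 1 read was added before taking log2 of reads per kb, each library was centred on its median, and calls were made at an adjusted p under 0.05. On simulated data built on the 13871 regions of the activin comparison, 191 of 200 regions changed by a log2 of 1 were recovered, with 7 false calls. That change is larger than the 0.70 of Fam193a, and interval lengths were kept as called. Recovery of smaller changes was therefore not tested. With no change simulated, 5.43% of regions had an unadjusted p under 0.05 by limma, against 9.53% in the data. Alternatives are given in the closing section. Depth was 172146474 to 224226184 high-quality reads, and the median open promoter held 515 to 928 reads per library.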

Additional observations from a re-analysis of the deposited data

How the results depend on the processing

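The number of open promoters was 3702 at a −log10 q of at least 10, and it stayed within 1.5 times of 6042 under the other alternatives, including 7308 at a −log10 q of at least 3 and 5275 with promoter annotation required in all 4 libraries. Promoters stayed wider than distal regions in every alternative: the difference in median width was 98 bp, 119 bp at a −log10 q of at least 3, 121 bp for the strongest peak alone, and 113 to 139 bp when 1 library was left out. The log2 ratio of promoter to distal density was 0.33, 0.49 at a −log10 q of at least 3, 0.18 at 10, 0.64 without division by length, and 0.31 to 0.37 when 1 library was left out. Scaling by the reads per Mb of the chromosome, an alternative chosen after seeing the data, gave 0.33, and counting genes by a RefSeq start inside the region, also chosen after seeing the data, gave 5328 genes in place of 5271. Opposite starts were found for 18.5% of the promoters within 500 bp and 22.0% within 2000 bp.

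For activin against vehicle, limma called 0 of all shared regions, 1 with 10 reads added, 605 when scaled to all high-quality reads, 39 without division by length, and 0 to 9 when 1 library was left out, the 9 without activin replicate 2. In the fits without a library, its group is 1 library that is assumed to vary like the other group. Open promoters were called under none of these except the scaling to all high-quality reads. That scaling called 289 of 5156, among them Fam193a, Fam120b, Smyd2, Rbm4b and Cga. The median log2 change of the open promoters was 0.31 under that scaling and 0.0090 with a common part of at least 80%. It was 0.021 to 0.059 when 1 library was left out, lowest without vehicle replicate 2 and highest without vehicle replicate 1. Without division by length the sign turned at Fam193a (−0.035), Fam120b (−0.22), Smyd2 (−0.088), Rbm4b (−0.20), Gapvd1 (0.054) and Gm12758 (0.021), and in the medians of the gonadotrope list (−0.032) and the activin and TGF-β list (−0.054). The gonadotrope median was 0.025 to 0.13 when 1 library was left out. The activin and TGF-β median was also −0.035 with a common part of at least 80%, and −0.0031 to 0.066 when 1 library was left out, the negative value without activin replicate 1. Division by length is what separates the first of these fits; the cause of the others was not tested. With a common part of at least 80% no value was obtained for the 8 promoters named for their p.

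The labels do not say whether libraries of the same replicate number belong together. The correlation of deviations between libraries of the same number was −0.025 over 13871 regions. With 2 libraries per group this is a single value, which cannot show whether the libraries are paired. With the replicate block, 4 shared regions were called, none of them an open promoter. Of 158 alternative values in all, 119 counted as unchanged, 24 as moved, 10 as reversed and 5 as stronger. Counts were unchanged within 1.5 times, and single promoters when direction and side of the threshold were kept. Differences, ratios and medians were unchanged when they moved by less than the spread between libraries. The share with an opposite start was unchanged within its 95% Wilson interval. With 2 libraries per group, a median standard error of 0.11 on the log2 scale limits what could be called, and the read counts of 17 tested promoters with a mean under 50 reads limit those further.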
